A study of Homo sapiens with 36 samples.

Results

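Messages known as native substrates of the ADAR enzymes were followed, AZIN1, BLCAP, COG3, COPA, NEIL1, CYFIP2, XIAP, MDM2 and MDM4. They were chosen by name, as genes described as edited from adenosine to inosine in cells that carry no fusion, either at a codon or in Alu repeats of the 3' untranslated region. All 9 were among the 60675 genes of the count table and the 31849 genes that passed the filter on low counts. The study used HEK293T cells, a human embryonic kidney line, with an inducible fusion of ADAR to 1 of the readers YTHDF1, YTHDF2 and YTHDF3, whose deaminase marks RNA near the fusion by editing it (TRIBE). RNA immunoprecipitation (RIP) was made from the same lysates against each endogenous reader in turn, and a fraction of the lysate served as input. The 3 lines (YTHDF1-ADAR, YTHDF2-ADAR and YTHDF3-ADAR) and 4 library types (YTHDF1 RIP, YTHDF2 RIP, YTHDF3 RIP and input) gave 12 groups of 3 libraries, 36 in all. Every group shared the treatment, doxycycline at 1 µg/mL for 24 h to induce the fusion. No library without a fusion, and none with ADAR alone, was analysed here, so editing by the cell's own enzymes and editing by a fusion cannot be told apart.

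ADAR enzymes deaminate adenosine in double-stranded RNA, and the ribosome and the sequencer read the inosine as guanosine. ADAR encodes ADAR1, which is present in most cells and edits inverted Alu repeats widely, and ADARB1 encodes ADAR2, which recodes a smaller set of codons and is best known from brain. The YTHDF proteins are cytoplasmic readers of N6-methyladenosine (m6A) in messages.

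Of the 6 recoding targets, AZIN1 encodes antizyme inhibitor 1, which spares ornithine decarboxylase from antizyme (ENSG00000155096, GRCh38 chromosome 8, 102826308 to 102893864). BLCAP encodes a small membrane protein first described in bladder cancer (ENSG00000166619, chromosome 20, 37492472 to 37527931). COG3 encodes a subunit of the oligomeric Golgi tethering complex (ENSG00000136152, chromosome 13, 45464898 to 45536701), and COPA the alpha subunit of the COPI vesicle coat (ENSG00000122218, chromosome 1, 160288594 to 160343273). NEIL1 encodes a DNA glycosylase of base excision repair (ENSG00000140398, chromosome 15, 75346955 to 75357115), and CYFIP2 a subunit of the WAVE actin-regulating complex (ENSG00000055163, chromosome 5, 157266079 to 157395595). Of the 3 messages edited in 3' untranslated repeats, XIAP encodes a caspase-inhibiting ubiquitin ligase (ENSG00000101966, chromosome X, 123859724 to 123913976). MDM2 encodes the ubiquitin ligase of p53 (ENSG00000135679, chromosome 12, 68808177 to 68850686), and MDM4 a p53 inhibitor that pairs with MDM2 (ENSG00000198625, chromosome 1, 204516379 to 204558120). The files give the number of edited sites per gene but no position of a site, so no site is placed in an exon or repeat here.

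Libraries held 12.5 to 37.5 M counts. In 2 lines, YTHDF2-ADAR and YTHDF3-ADAR, the 6 YTHDF1 RIP libraries stood apart, with 12.5 to 16.3 M counts, 54.1 to 74.2% of them on protein-coding genes and 0.696 to 4.35% on small nucleolar RNA, whereas the 3 YTHDF1 RIP libraries of YTHDF1-ADAR cells held 22.7 to 33.5 M counts, with 86.1 to 88% and 0.0677 to 0.217% on these classes. YTHDF1 RIP results in YTHDF2-ADAR and YTHDF3-ADAR cells rest wholly on those 6 libraries and have no value without them. The fixed markers of HEK293 cells summed to 339 to 2980 CPM (TMM-scaled) over the 36 libraries, 339 to 478 CPM in those 6, while markers of blood (1.25 to 5.53 CPM), hepatocytes (0 to 0.457 CPM) and keratinised epithelium (0 to 0.0959 CPM) were near 0. Neuron markers (4.72 to 15.6 CPM) and fibroblast markers (6.92 to 53.1 CPM) were low. Each line's inputs held the most of its own YTHDF gene, with YTHDF1 at 634, 87.9 and 94.0 CPM, YTHDF2 at 154, 321 and 197 CPM and YTHDF3 at 52.8, 54.8 and 122.6 CPM in the inputs of the YTHDF1-ADAR, YTHDF2-ADAR and YTHDF3-ADAR lines. Nothing in the labels says that the 3 libraries of a group came from separate cultures, so p-values measure only the spread between these libraries.

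Before RIP, COPA was the most abundant of the 9 messages and NEIL1 the least. Per length, the median input level over 9 libraries was 37.75 TPM for COPA (range 17.5 to 56.9), 17.55 TPM for MDM2 (10.6 to 26.5), 16.63 TPM for AZIN1 (9.24 to 22.7) and 12.84 TPM for MDM4 (8.54 to 16.7). XIAP at 9.797 TPM (4.93 to 14.7), CYFIP2 at 9.199 TPM (6.37 to 15.7) and BLCAP at 5.869 TPM (3.06 to 7.70) followed, then COG3 at 4.254 TPM (3.08 to 6.02) and NEIL1 at 3.548 TPM (2.43 to 5.37). Neighbours in this order had overlapping ranges in each case. Within each input library, however, COPA exceeded MDM2, while NEIL1 lay above COG3 in some. COPA lay above 93.8% of the 15966 coding genes tested and NEIL1 above 43.9%.

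**Figure D1:**
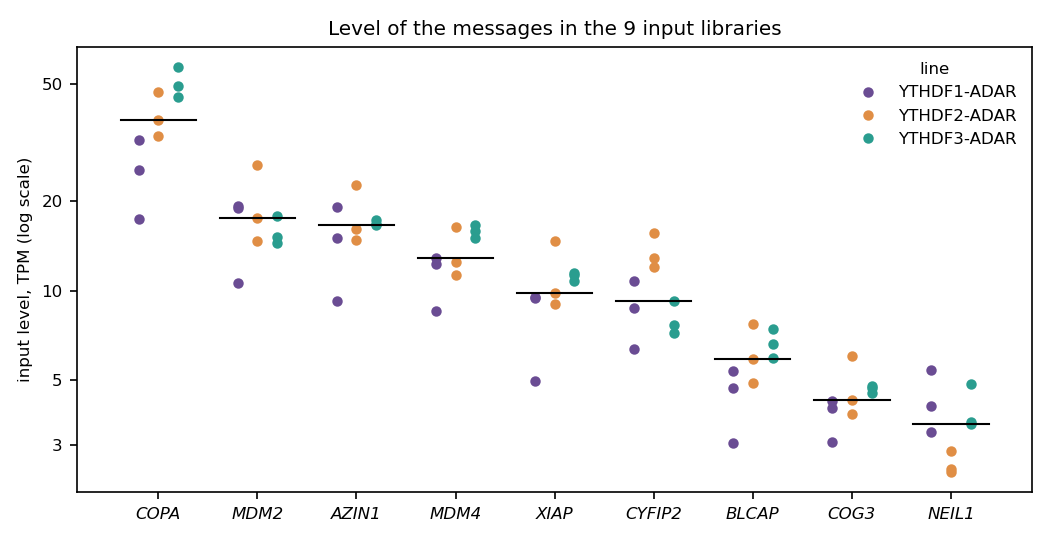
Level of each message in the 9 input libraries, in TPM on a log axis, with points coloured by line and a black bar at the median of the 9. COPA sits highest, with a median of 37.75 TPM, and NEIL1 lowest, with 3.548 TPM.

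NEIL1 was called higher in YTHDF1-ADAR inputs than in those of each other line, though its values overlapped with those of YTHDF3-ADAR inputs. CYFIP2 was called lower in YTHDF3-ADAR inputs than in those of each other line. Of the 9, 1 was higher and 0 were lower in YTHDF1-ADAR than in YTHDF2-ADAR inputs, beside 13.3% and 4.30% of all genes tested. NEIL1 lay at 54.1, 25.2 and 28.8 CPM in YTHDF1-ADAR inputs, against 18.5, 17.6 and 15.4 CPM in YTHDF2-ADAR inputs, and the first of the YTHDF1-ADAR values stood far above the rest. Its log2 fold change was 1.07 ± 0.19 (edgeR quasi-likelihood test, adjusted p = 0.000288) and ran over 0.61 to 1.27 with 1 library left out at a time. The call was lost in a model of only the groups compared. MAN2C1, on the other strand, shares 26.4% of the exonic bases of NEIL1, and reads were counted without strand. By the same test MAN2C1 was also higher in YTHDF1-ADAR than in YTHDF2-ADAR inputs (0.91 ± 0.28, adjusted p = 0.0258) and YTHDF3-ADAR inputs (1.05 ± 0.28, 0.0119). Reads of the shared bases cannot be assigned to either gene. Against YTHDF3-ADAR inputs 3 messages were higher and 1 was lower in YTHDF1-ADAR inputs, beside 11.3% and 5.10% of all genes. These were NEIL1 (0.64 ± 0.19, adjusted p = 0.02), CYFIP2 (0.57 ± 0.15, 0.0108) and MDM2 (0.49 ± 0.15, 0.0232), and COPA (-0.55 ± 0.14, 0.00606) as the lower one, by the same test. Without replicate 1 of the YTHDF1-ADAR inputs NEIL1, CYFIP2 and COPA were no longer called, without its replicate 2 MDM2, and without its replicate 3 CYFIP2 and MDM2. Without any 1 of the YTHDF3-ADAR inputs NEIL1, CYFIP2 and MDM2 were no longer called. NEIL1 and MDM2 were also lost in a fit without the 6 libraries that stood apart, NEIL1 with only the groups compared and MDM2 with no filter. Over these left-out libraries the log2 fold changes ran over 0.19 to 0.84 for NEIL1, 0.32 to 0.59 for CYFIP2, 0.30 to 0.58 for MDM2 and -0.82 to -0.50 for COPA. YTHDF3-ADAR against YTHDF2-ADAR inputs gave 0 higher and 1 lower, beside 2.15% and 1.27% of all genes. CYFIP2 lay at 71.0, 75.9 and 63.9 CPM in YTHDF3-ADAR inputs, against 136, 142 and 128 CPM in YTHDF2-ADAR inputs. The 2 groups did not overlap, and the log2 fold change was -0.94 ± 0.15 (adjusted p = 0.000105), lower than that of all but 2.84% of coding genes. This call held under every alternative and every left-out library.

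In YTHDF1 RIP, AZIN1 and XIAP were below input in every line, and COPA in YTHDF2-ADAR and YTHDF3-ADAR cells. NEIL1 was below input in YTHDF1-ADAR cells and above it in the other lines, MDM2 and BLCAP were above it in YTHDF1-ADAR cells and below it in the others, and COG3 and MDM4 were called below it in YTHDF1-ADAR cells alone. In YTHDF1 RIP of YTHDF1-ADAR cells 2 of the 9 messages were higher than in input and 5 were lower, beside 20.6% and 28.8% of all genes tested. In YTHDF2-ADAR cells YTHDF1 RIP gave 1 higher and 6 lower, beside 41.8% and 33.4%, and in YTHDF3-ADAR cells 1 higher and 6 lower, beside 40.8% and 32.4%. By total counts in place of TMM, which moved the median log2 fold change of all genes to 0.72 from 0.20 in YTHDF2-ADAR cells and to 0.54 from 0.21 in YTHDF3-ADAR cells, both splits became 3 higher and 3 lower, and 71.7% and 66.7% of all calls were higher, against 55.6% and 55.7% by TMM. The median log2 fold change of the 9 by TMM was -0.87 for YTHDF1-ADAR, -0.68 for YTHDF2-ADAR and -0.60 in YTHDF3-ADAR cells, beside -0.16, -0.48 and -0.45 over all coding genes.

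In YTHDF2 RIP, COPA was above input in all 3 lines. In YTHDF1-ADAR cells 2 were higher and 3 lower, beside 8.66% and 15.5% of all genes. In YTHDF2-ADAR cells 2 were higher and 0 lower, beside 10.2% and 10.1%, and in YTHDF3-ADAR cells 1 was higher and 0 lower, beside 8.98% and 9.93%. By total counts these splits became 2 higher and 0 lower, 5 and 0, and 5 and 0, and 57.7%, 71.5% and 70.9% of all calls were higher, against 35.9%, 50% and 47.5% by TMM. In YTHDF3 RIP, COPA and MDM2 were above input in all 3 lines. Of the 9, 3 were higher and 0 lower in YTHDF1-ADAR cells, beside 11.5% and 20.1% of all genes, 4 and 0 in YTHDF2-ADAR cells, beside 15.2% and 16.9%, and 6 and 0 in YTHDF3-ADAR cells, beside 13.5% and 16.1%. The messages called had log2 fold changes above those of 84.4 to 95.3%, 79.4 to 90.2% and 74.1 to 91.4% of coding genes in these lines. The median of the 9 was 0.19, 0.39 and 0.47, beside -0.11, 0.03 and 0.04 over all coding genes. The count of 6 was 1 without YTHDF3 RIP replicate 1 of YTHDF3-ADAR cells, 4 without its replicate 2, 3 without its replicate 3, and 2 without any 1 of the inputs. By total counts YTHDF3 RIP gave 6, 8 and 7 higher and 0 lower, and 60%, 68.5% and 64.9% of all calls were higher, against 36.3%, 47.4% and 45.6% by TMM. The edgeR test found 0 lower at an adjusted p under 0.05 in YTHDF3 RIP, and among all genes 12584, 12842 and 12041 passed an unadjusted p of 0.05 in the 3 lines.

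**Figure D2:**
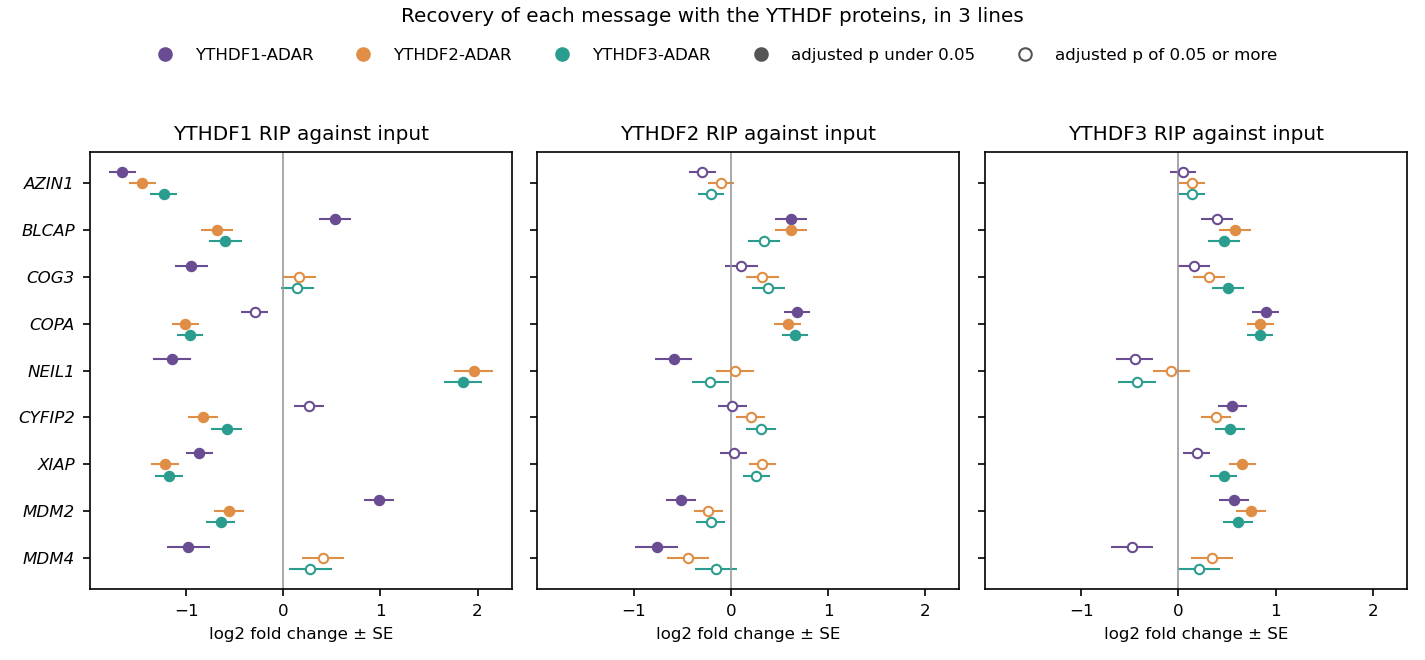
Log2 fold change of each message in YTHDF1, YTHDF2 and YTHDF3 RIP against input (points, with standard errors as bars), by line, with filled points at an adjusted p under 0.05. NEIL1 points to opposite sides in YTHDF1 RIP, -1.15 in YTHDF1-ADAR cells and 1.96 in YTHDF2-ADAR cells, and all 9 COPA points are negative with YTHDF1 or positive with YTHDF2 and YTHDF3.

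AZIN1 was poorly recovered with YTHDF1 in every line. In YTHDF1 RIP it lay at 31.9, 27.0 and 33.8 CPM in YTHDF1-ADAR cells, against 79.5, 97.7 and 116 CPM in input. YTHDF2-ADAR cells gave 40.5, 35.1 and 33.6 CPM in YTHDF1 RIP, against 94.7, 99.8 and 104 CPM in input, and YTHDF3-ADAR cells 38.7, 37.5 and 31.1 CPM, against 87.0, 80.8 and 84.3 CPM. All 9 YTHDF1 RIP libraries lay below all 9 inputs. The log2 fold changes were -1.66 ± 0.14, -1.45 ± 0.14 and -1.23 ± 0.14 in the order of the lines above (adjusted p = 4.61e-12, 7.47e-11 and 2.52e-09), and each call held under every alternative. YTHDF2 RIP libraries ran over 64.2 to 100.3 CPM and YTHDF3 RIP libraries over 84.5 to 123 CPM, beside 79.5 to 116 CPM in the inputs, with log2 fold changes of -0.29 ± 0.14, -0.10 ± 0.14 and -0.21 ± 0.14 for YTHDF2 RIP and 0.05 ± 0.14, 0.14 ± 0.14 and 0.14 ± 0.14 for YTHDF3 RIP, none past the test.

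XIAP, edited outside its coding sequence, showed the same order. YTHDF1 RIP held 46.1, 38.1 and 49.9 CPM in YTHDF1-ADAR cells, against 64.3, 92.8 and 87.3 CPM in input. It held 40.7, 37.4 and 42.8 CPM in YTHDF2-ADAR cells, against 86.8, 92.1 and 102 CPM, and 40.6, 37.4 and 33.8 CPM in YTHDF3-ADAR cells, against 85.2, 79.8 and 87.3 CPM. No YTHDF1 RIP library reached its input, and the log2 fold changes of -0.87 ± 0.14, -1.22 ± 0.14 and -1.17 ± 0.14 held under every alternative (adjusted p = 2.3e-06, 3.39e-09 and 8.64e-09). With YTHDF3 the message rose in YTHDF2-ADAR cells, at 153, 169 and 121 CPM (0.66 ± 0.14, adjusted p = 0.000275), and in YTHDF3-ADAR cells, at 114, 119.6 and 115 CPM (0.46 ± 0.14, 0.00893). The second of these calls was lost when any of the 6 libraries compared was left out (0.38 to 0.45). YTHDF3 RIP of YTHDF1-ADAR cells gave 0.19 ± 0.14, and YTHDF2 RIP 0.03 ± 0.14, 0.32 ± 0.14 and 0.26 ± 0.14, short of the threshold.

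COPA was the message most steadily enriched with YTHDF2 and YTHDF3. YTHDF3 RIP held 432, 371 and 436 CPM in YTHDF1-ADAR cells, against 195, 216 and 254 CPM in input. YTHDF2-ADAR cells gave 551, 471 and 513 CPM, against 274, 303 and 279 CPM, and YTHDF3-ADAR cells 578, 533 and 629 CPM, against 333, 344 and 295 CPM. Every YTHDF3 RIP library lay above every input of its line, with log2 fold changes of 0.90 ± 0.14, 0.84 ± 0.14 and 0.84 ± 0.14 (adjusted p = 2.28e-06, 6.84e-06 and 7.53e-06). YTHDF2 RIP, over 323 to 564 CPM, also lay above each line's inputs, with 0.68 ± 0.14, 0.58 ± 0.14 and 0.66 ± 0.14 (adjusted p = 0.000217, 0.00165 and 0.000519). The YTHDF2 RIP call in YTHDF2-ADAR cells was lost without input replicate 1 or 3 (0.50 to 0.70 over all left-out libraries), and the other 5 held under every alternative. YTHDF1 RIP went the other way in YTHDF2-ADAR cells, at 126, 140.2 and 159 CPM (-1.01 ± 0.14, 7.86e-08), and in YTHDF3-ADAR cells, at 168, 182 and 149.8 CPM (-0.96 ± 0.14, 2.15e-07). In YTHDF1-ADAR cells it held 179, 186 and 177 CPM, a log2 fold change of -0.29 ± 0.14 that did not pass (adjusted p = 0.0706). The YTHDF1 RIP values of YTHDF2-ADAR and YTHDF3-ADAR cells each lay above those of 30.4% of coding genes, beside coding medians of -0.48 and -0.45. Both calls held under every alternative, with log2 fold changes up to -0.48 and -0.62.

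**Figure D3:**
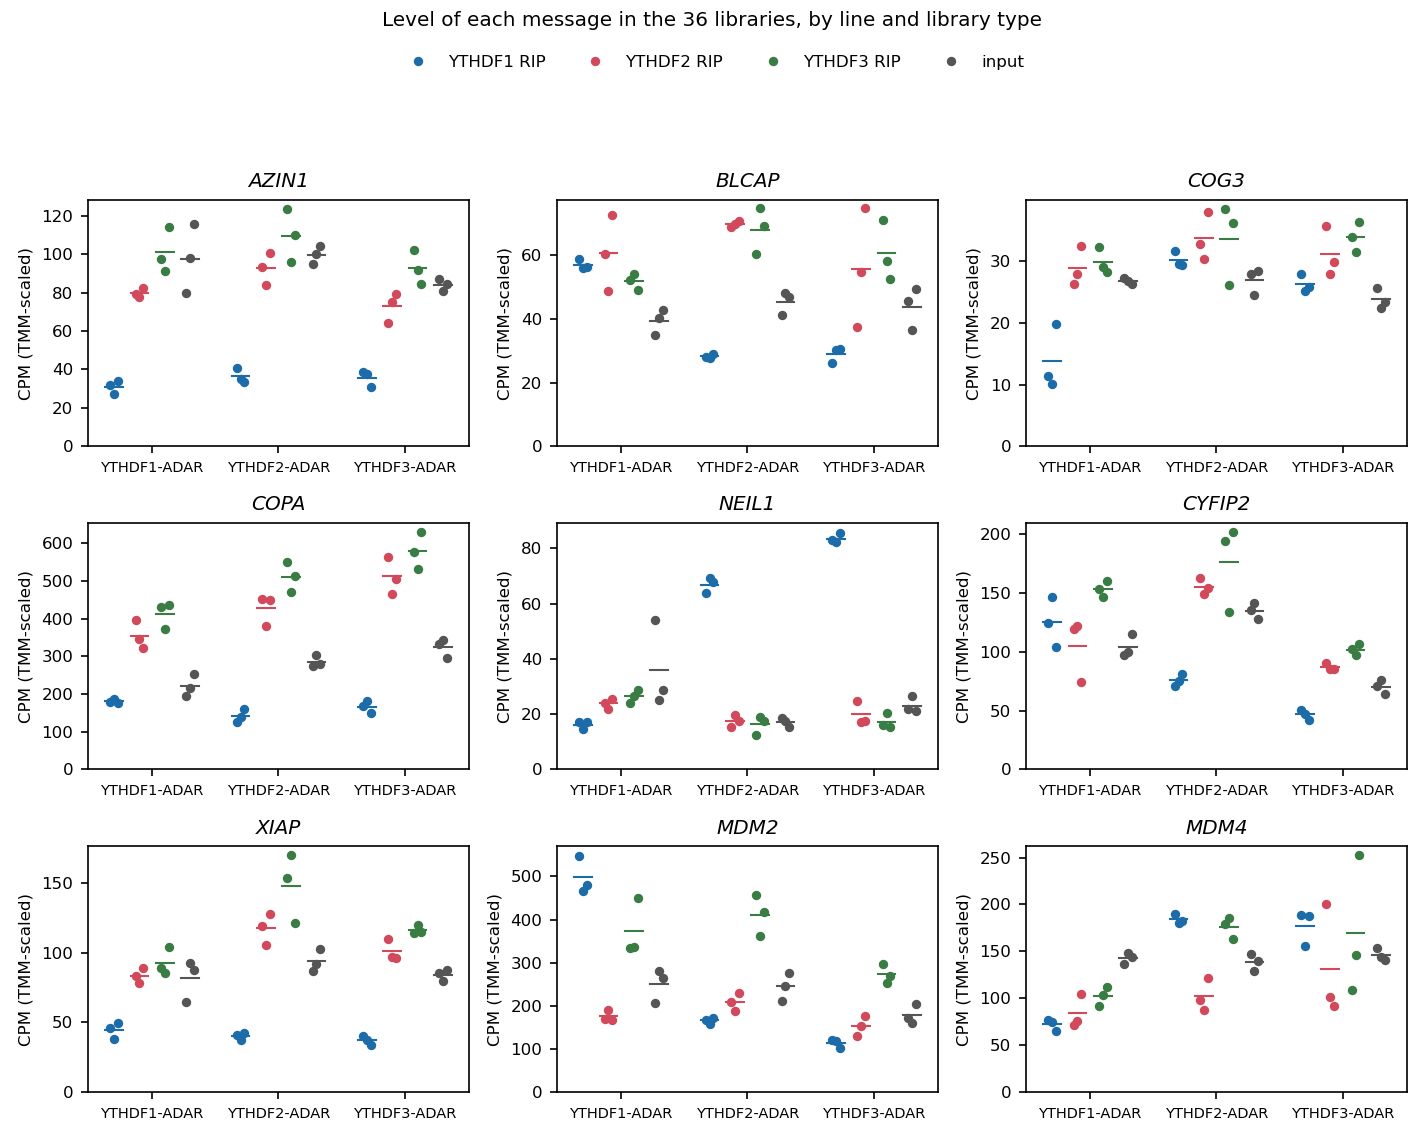
Level of each message in every library, in TMM-scaled CPM on linear axes from 0, with 3 points and their mean (bar) for each line and library type, YTHDF1, YTHDF2 and YTHDF3 RIP left of input. MDM2 reaches 466 to 548 CPM in YTHDF1 RIP of YTHDF1-ADAR cells, and NEIL1 63.7 to 85.5 CPM in YTHDF1 RIP of the other lines.

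MDM2 was the message most enriched with YTHDF1 in YTHDF1-ADAR cells, and it lay below input in YTHDF1 RIP of the other lines. YTHDF1 RIP held 548, 466 and 479 CPM in YTHDF1-ADAR cells, against 207, 281 and 265 CPM in input. In YTHDF2-ADAR cells it held 169, 159 and 172 CPM, against 213, 247 and 277 CPM, and in YTHDF3-ADAR cells 120.3, 119 and 104 CPM, against 172, 159.8 and 204 CPM. RIP and input libraries did not overlap in any line, with RIP above input in the first line and below it in the others. The log2 fold changes were 0.99 ± 0.15, -0.56 ± 0.15 and -0.65 ± 0.15 (adjusted p = 1.03e-06, 0.00135 and 0.000338). The last 2 lay near the middle of all coding genes, above 47.3% and 42.2% of them, beside coding medians of -0.48 and -0.45. By total counts these 2 MDM2 values shrank to -0.04 and -0.31 and were not called. YTHDF3 RIP enriched MDM2 in all 3 lines, at 335, 336 and 449.6 CPM in YTHDF1-ADAR (0.57 ± 0.15, adjusted p = 0.00302), 456, 362 and 417 CPM in YTHDF2-ADAR (0.75 ± 0.15, 0.000171) and 297, 253 and 269 CPM in YTHDF3-ADAR cells (0.61 ± 0.15, 0.00167). The third call was lost without input replicate 2 or YTHDF3 RIP replicate 1 (0.49 to 0.67). YTHDF2 RIP lay below input in YTHDF1-ADAR cells, at 169, 192 and 167 CPM (-0.51 ± 0.15, 0.0102), a call lost under 5 alternatives and without any of 4 libraries. Reads were counted without strand and shared among overlapping genes, and a long noncoding RNA on the other strand (ENSG00000257181) shares 785 exonic bases, 5.84% of MDM2. Its log2 fold changes in YTHDF1 RIP were 0.97, -0.96 and -1.20.

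Set against YTHDF2 RIP directly, YTHDF3 RIP held more MDM2 in every line, a comparison added after the MDM2 values were seen. YTHDF3 RIP libraries exceeded all YTHDF2 RIP libraries of their line, which held 169, 192 and 167 CPM in YTHDF1-ADAR, 209, 187 and 231 CPM in YTHDF2-ADAR and 132, 155 and 178 CPM in YTHDF3-ADAR cells. In YTHDF1-ADAR cells 2 of the 9 messages were higher and 0 lower in YTHDF3 than in YTHDF2 RIP, beside 8.51% and 10.7% of all genes. YTHDF2-ADAR cells gave 2 and 0, beside 8.33% and 12.1%, and YTHDF3-ADAR cells 1 and 0, beside 5.74% and 9.01%. MDM2 had log2 fold changes of 1.09 ± 0.15, 0.98 ± 0.15 and 0.82 ± 0.15 (edgeR, adjusted p = 1.91e-06, 1.15e-05 and 0.00022), above those of 97.5%, 96.5% and 96.1% of coding genes. These 3 calls held under every alternative and every left-out library. The other calls were CYFIP2 in YTHDF1-ADAR cells (0.54 ± 0.15, 0.01), lost without YTHDF2 RIP replicate 3 or in a model of only the groups compared, and MDM4 in YTHDF2-ADAR cells (0.78 ± 0.22, 0.00851). The share of all calls that were higher moved to 55.9% by total counts, against 44.3% by TMM, in YTHDF1-ADAR cells, with 3 messages higher and 0 lower. The overlapping ENSG00000257181 moved with MDM2, by 1.26, 1.01 and 0.74.

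MDM4, the partner of MDM2, did not follow it. YTHDF1 RIP held 77.1, 74.7 and 65.7 CPM in YTHDF1-ADAR cells, against 136, 148 and 144 CPM in input. The other lines gave 190.4, 180.2 and 183 CPM in YTHDF2-ADAR cells, against 147, 129.6 and 140.1 CPM, and 188, 156 and 188 CPM in YTHDF3-ADAR cells, against 154, 144 and 140.5 CPM. The RIP libraries lay below every input in YTHDF1-ADAR cells and above every input in the other lines. Only the first difference was called (-0.98 ± 0.22, adjusted p = 0.000296), beside 0.41 ± 0.22 (0.0883) and 0.28 ± 0.22 (0.248). By total counts the last 2 became 0.93 and 0.60 and were called. Both were also called with only the groups compared, and the YTHDF2-ADAR value with DESeq2 size factors and the DESeq2 test. YTHDF2 RIP lay at 71.8, 76.1 and 104 CPM in YTHDF1-ADAR cells (-0.77 ± 0.22, 0.00836), a call lost without input replicate 3 or YTHDF2 RIP replicate 1 or 2 (-0.88 to -0.62), by total counts and in a model of only the groups compared. In YTHDF3-ADAR cells single RIP libraries stood out, with 201, 102 and 91.8 CPM in YTHDF2 RIP and 109, 146 and 253 CPM in YTHDF3 RIP, and no difference from input was called.

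NEIL1 changed most between lines. YTHDF1 RIP held 17.1, 14.5 and 17.2 CPM in YTHDF1-ADAR cells, against 54.1, 25.2 and 28.8 CPM in input. It held 63.7, 69.1 and 67.7 CPM in YTHDF2-ADAR cells, against 18.5, 17.6 and 15.4 CPM, and 82.9, 82.2 and 85.5 CPM in YTHDF3-ADAR cells, against 21.7, 26.4 and 21.2 CPM. RIP lay below all inputs in YTHDF1-ADAR cells and above all of them in the other lines. The log2 fold changes were -1.15 ± 0.19, 1.96 ± 0.20 and 1.85 ± 0.20 (adjusted p = 4.66e-06, 1.73e-10 and 5.43e-10), and the first ran over -1.35 to -0.78 with 1 library left out. NEIL1 shares 1832 exonic bases, 26.4% of its length, with MAN2C1 on the other strand, an alpha-mannosidase gene with a mean of 1397 counts beside 700 for NEIL1. In the same comparisons MAN2C1 gave -1.10 ± 0.28, 2.23 ± 0.29 and 2.51 ± 0.30, so the reads of these genes cannot be told apart in unstranded counts. With YTHDF2 the message was lower in YTHDF1-ADAR cells (-0.59 ± 0.19, 0.0202), a call lost under 6 alternatives and without input replicate 1 or any of the 3 YTHDF2 RIP libraries (-0.79 to -0.21). All other YTHDF2 and YTHDF3 RIP values of NEIL1 lay between -0.45 and 0.04 and were not called.

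BLCAP and CYFIP2 kept more of their RNA in YTHDF1 RIP of YTHDF1-ADAR cells than in that of the other lines. BLCAP held 58.8, 55.9 and 56.4 CPM in YTHDF1 RIP of YTHDF1-ADAR cells, against 34.9, 40.4 and 43.0 CPM in input. In YTHDF2-ADAR cells it held 28.2, 27.8 and 28.9 CPM, against 41.2, 48.3 and 46.9 CPM, and in YTHDF3-ADAR cells 26.3, 30.2 and 30.5 CPM, against 45.7, 36.5 and 49.5 CPM. RIP exceeded all inputs in the first line and fell below all of them in the others, with 0.53 ± 0.17, -0.68 ± 0.17 and -0.60 ± 0.17 (adjusted p = 0.00729, 0.00052 and 0.0021). The last 2 lay above those of 42.2% and 44.1% of coding genes. The first call was lost without input replicate 1 (0.41 to 0.68), and the others by total counts, at -0.16 and -0.26. YTHDF2 RIP raised BLCAP in YTHDF1-ADAR (0.62 ± 0.17, 0.0047) and YTHDF2-ADAR cells (0.62 ± 0.17, 0.0057), and YTHDF3 RIP in YTHDF2-ADAR (0.58 ± 0.17, 0.00583) and YTHDF3-ADAR cells (0.47 ± 0.17, 0.0289). YTHDF3 RIP in YTHDF1-ADAR cells (0.40 ± 0.17, 0.0672) did not pass, though RIP lay above all inputs, and it was called under 6 of 7 alternatives and in 4 of 6 fits with 1 library left out. Of the 4 calls, the first was lost in a model of only the groups compared, the second without input replicate 1 or 3, the third without either of these or YTHDF3 RIP replicate 2 or 3 (0.43 to 0.59), and the fourth without any of 5 libraries (0.28 to 0.53).

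CYFIP2 held 125, 146 and 104 CPM in YTHDF1 RIP of YTHDF1-ADAR cells, against 97.0, 100.2 and 115 CPM in input, which overlap. It held 71.2, 75.4 and 81.5 CPM in YTHDF2-ADAR cells, against 136, 142 and 128 CPM, and 50.8, 47.4 and 42.4 CPM in YTHDF3-ADAR cells, against 71.0, 75.9 and 63.9 CPM, with all RIP libraries below all inputs. The log2 fold changes were 0.26 ± 0.15 (adjusted p = 0.16), -0.83 ± 0.15 (1.63e-05) and -0.58 ± 0.16 (0.00121), and by total counts the last 2 were -0.30 and -0.25 and were not called. By TMM the last 2 lay above those of 36.6% and 44.6% of coding genes. In YTHDF3 RIP CYFIP2 rose in YTHDF1-ADAR cells, at 154, 146 and 159.8 CPM (0.56 ± 0.15, 0.0045), and in YTHDF3-ADAR cells, at 102, 97.1 and 106 CPM (0.54 ± 0.15, 0.00675). The second call was lost without input replicate 1 or 3 or YTHDF3 RIP replicate 1 or 3 (0.42 to 0.54). No YTHDF2 RIP difference passed.

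COG3 was low in YTHDF1 RIP of YTHDF1-ADAR cells, at 11.4, 10.1 and 19.9 CPM, against 27.2, 26.7 and 26.2 CPM in input. YTHDF2-ADAR cells gave 31.5, 29.4 and 29.4 CPM, against 27.8, 24.4 and 28.4 CPM, and YTHDF3-ADAR cells 27.9, 25.1 and 25.8 CPM, against 25.6, 22.4 and 23.3 CPM. The groups were apart in the first line, with RIP below input, and in the second, with RIP above it, while they overlapped in the third. The log2 fold changes were -0.95 ± 0.17 (adjusted p = 1.25e-05), 0.16 ± 0.17 and 0.14 ± 0.17, of which the first was called and held under every alternative. By total counts the others became 0.69 and 0.48 and were called. YTHDF3 RIP raised COG3 in YTHDF3-ADAR cells (0.51 ± 0.17, 0.0176), a call lost when any of the 6 libraries was left out (0.42 to 0.51).

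The difference between lines was tested as an interaction. In YTHDF1 RIP 7 of the 9 messages differed between lines, beside 63.7% of all genes, and the smallest adjusted p was that of NEIL1 (3.2e-12), then MDM2 (2.47e-08), BLCAP (3.19e-05), COG3 (9.59e-05), CYFIP2 (0.000118), MDM4 (0.000273) and COPA (0.00205). AZIN1 (0.145) and XIAP (0.215), the messages low with YTHDF1 in each line, were not called. XIAP was called with only the groups compared and in 13 of 18 fits with 1 library left out, with adjusted p down to 0.00565, and AZIN1 by total counts (0.0146). Between YTHDF2-ADAR and YTHDF3-ADAR cells alone, 0 of the 9 were called by the same test, beside 2 of all genes, with 1088 genes at an unadjusted p under 0.05. Line and library quality cannot be told apart there, since the libraries that stood apart are those of the other lines. The COG3 call was lost without YTHDF1 RIP replicate 1 or 2 of YTHDF1-ADAR cells, and COPA's by total counts. In YTHDF2 RIP 0 of the 9 were called by edgeR, beside 0% of all genes, of which 1064 had an unadjusted p under 0.05. In YTHDF3 RIP 0 of the 9 were called, beside 0.00628% of all genes, with 1632 genes at an unadjusted p under 0.05. The authors' deposited table, which joins the lines in 1 value, lists a log2 fold change of 0.836 for NEIL1 with YTHDF1 (adjusted p = 0.00638), where the lines above differ in sign. For MDM2 the authors' deposited table lists 0.041 with YTHDF1 (adjusted p = 1) and 0.733 with YTHDF3 (0.0295), and for COPA -0.999 with YTHDF1, 0.732 with YTHDF2 and 0.933 with YTHDF3.

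Editing was read from the authors' deposited tables, which give per gene a number of sites and a score, here divided to give the mean editing level per site in percent. The values pool the replicates and give no depth, so they carry no error. The YTHDF1-ADAR table lists 6 of the 9 messages, beside 50.6% of 15474 coding genes with a symbol, that of YTHDF2-ADAR lists 3, beside 15.5%, and that of YTHDF3-ADAR lists 5, beside 19.0%. XIAP, MDM2 and MDM4 are in all 3 tables, BLCAP in 2, and AZIN1, COPA and CYFIP2 in 1 each. COG3 and NEIL1 are absent from all 3. The tables list different sites per gene, so levels are compared between library types within a table and not between lines.

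Among the recoding targets BLCAP had the highest level. In YTHDF1-ADAR cells its 20 sites averaged 11.8% in YTHDF1 RIP, 12.4% in YTHDF2 RIP and 11.3% in YTHDF3 RIP, against 10.1% in input, an input level above that of 95.2% of the genes listed. In YTHDF3-ADAR cells BLCAP had 1 site, at 1.65% in YTHDF1 RIP, 1.56% in YTHDF2 RIP and 2.13% in YTHDF3 RIP, against 2.52% in input. CYFIP2 had 5 sites in YTHDF1-ADAR cells, at 1.60% in YTHDF1 RIP, 0.566% in YTHDF2 RIP and 0.815% in YTHDF3 RIP, against 1.06% in input. BLCAP thus lay above input with all 3 RIPs in the first line and below input with all 3 in the other, and CYFIP2 lay above input with YTHDF1 alone. In the first line the authors' natural log odds ratios of BLCAP were 0.17, 0.23 and 0.13. The medians over genes with levels above 0 in RIP and input were higher, at 0.36, 0.30 and 0.22. COPA had 1 site in YTHDF1-ADAR cells, at 0.604% in YTHDF1 RIP, 0.487% in YTHDF2 RIP and 0.554% in YTHDF3 RIP, against 0% in input, and AZIN1 1 site in YTHDF3-ADAR cells, at 0% in YTHDF1 RIP, 0.758% in YTHDF2 RIP and 0.872% in YTHDF3 RIP, against 0.459% in input. No p given by the authors passed 0.05 for these 4 messages.

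Together XIAP, MDM2 and MDM4 carried most of the sites, though BLCAP, with 20 in YTHDF1-ADAR cells, had more there than XIAP or MDM4. XIAP had 15 sites in YTHDF1-ADAR cells, at 2.90% in YTHDF1 RIP, 4.19% in YTHDF2 RIP and 3.44% in YTHDF3 RIP, against 3.57% in input. In YTHDF2-ADAR cells its 18 sites averaged 1.08% in YTHDF1 RIP, 1.87% in YTHDF2 RIP and 1.74% in YTHDF3 RIP, against 1.56% in input, and in YTHDF3-ADAR cells its 31 sites 2.09% in YTHDF1 RIP, 3.37% in YTHDF2 RIP and 3.45% in YTHDF3 RIP, against 3.03% in input. In each line the XIAP level was lowest in YTHDF1 RIP. The median over all genes listed was also lowest in YTHDF1 RIP in YTHDF2-ADAR (0.5776%) and YTHDF3-ADAR cells (0.5765%), but highest there in YTHDF1-ADAR cells (3.713%). The authors' natural log odds ratios of XIAP for YTHDF1 RIP were -0.22, -0.37 and -0.38 in the 3 lines. They lay above those of 8.75%, 31.5% and 37.2% of genes with levels above 0 in RIP and input. MDM2 had 41 sites in YTHDF1-ADAR cells, at 2.46% in YTHDF1 RIP, 2.79% in YTHDF2 RIP and 2.41% in YTHDF3 RIP, against 1.91% in input. With YTHDF2-ADAR its 5 sites averaged 0.982% in YTHDF1 RIP, 1.26% in YTHDF2 RIP and 1.22% in YTHDF3 RIP, against 1.14% in input, and with YTHDF3-ADAR its 21 sites 0.721% in YTHDF1 RIP, 1.85% in YTHDF2 RIP and 1.89% in YTHDF3 RIP, against 1.54% in input. MDM2 was above input in every RIP but YTHDF1 RIP of the last 2 lines. Its log odds ratios there, -0.15 and -0.77, lay above those of 42.9% and 22.5% of such genes.

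MDM4 was the message whose level passed the authors' test. Its 18 sites in YTHDF1-ADAR cells averaged 5.09% in YTHDF1 RIP, 4.36% in YTHDF2 RIP and 3.26% in YTHDF3 RIP, against 1.99% in input. The 14 sites in YTHDF2-ADAR cells averaged 1.42% in YTHDF1 RIP, 4.83% in YTHDF2 RIP and 3.63% in YTHDF3 RIP, against 4.35% in input, and the 40 sites in YTHDF3-ADAR cells 1.18% in YTHDF1 RIP, 4.26% in YTHDF2 RIP and 4.19% in YTHDF3 RIP, against 3.18% in input. YTHDF1 RIP thus had the highest MDM4 level of its table in YTHDF1-ADAR cells and the lowest in the other lines. The median over all genes listed was also highest in YTHDF1 RIP in YTHDF1-ADAR cells (3.713%) and lowest there in the others (0.5776% and 0.5765%). MDM4 RNA was called below input in YTHDF1 RIP of YTHDF1-ADAR cells, and its rises in the other lines were not called in the model of all 12 groups. MDM4 had more sites than 99.4% of the genes listed in YTHDF3-ADAR cells, 97.9% in YTHDF2-ADAR cells and 73.9% in YTHDF1-ADAR cells. In the same order the shares were 99.2%, 98.7% and 69.7% for XIAP and 98.5%, 88.9% and 89.1% for MDM2. The authors' deposited tables give natural log odds ratios against input of 0.97, 0.81 and 0.51 for YTHDF1, YTHDF2 and YTHDF3 RIP in YTHDF1-ADAR cells (their adjusted p = 1.71e-05, 0.00432 and 0.229), and of -1.15 and -1.01 for YTHDF1 RIP in YTHDF2-ADAR and YTHDF3-ADAR cells (their adjusted p = 0.0489 and 0.199).

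**Figure D4:**
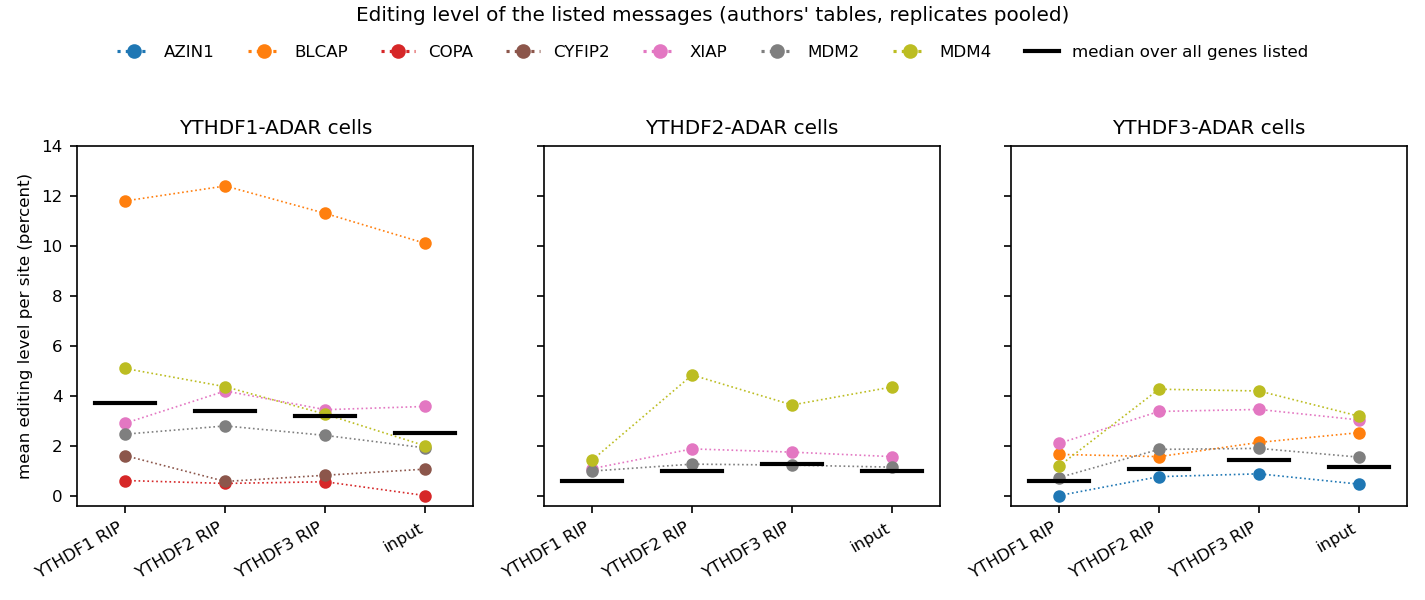
Mean editing level per site, in percent, of each listed message in YTHDF1, YTHDF2 and YTHDF3 RIP and input of the 3 lines (points, 1 pooled value each), with the median over all genes of the table as black bars. BLCAP stands highest in YTHDF1-ADAR cells, at 10.1 to 12.4%, and MDM4 drops to 1.42% and 1.18% in YTHDF1 RIP of the other lines. Dotted lines only join the values of a message.

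Over all genes of the tables the same library types stood apart. The median level was 3.713% in YTHDF1 RIP, 3.401% in YTHDF2 RIP and 3.187% in YTHDF3 RIP of YTHDF1-ADAR cells, against 2.503% in input. In YTHDF2-ADAR cells it was 0.5776%, 0.9793% and 1.282%, against 0.9901% in input, and in YTHDF3-ADAR cells 0.5765%, 1.049% and 1.415%, against 1.149%. A level of 0 was listed in YTHDF1 RIP for 40.0% and 40.9% of genes in YTHDF2-ADAR and YTHDF3-ADAR cells, and for 3.85% in YTHDF1-ADAR cells. In YTHDF1-ADAR cells the authors' adjusted p passed 0.05 for 1 of 6 messages with YTHDF1 RIP, beside 8.12% of genes listed, 1 with YTHDF2 RIP, beside 1.63%, and 0 with YTHDF3 RIP, beside 1.12%. In YTHDF2-ADAR cells it passed for 1 of 3 with YTHDF1 RIP, beside 2.66%, and for 0 with YTHDF2 and YTHDF3 RIP, beside 0.250% and 1.46%. In YTHDF3-ADAR cells it passed for 0 of 5 with each RIP, beside 2.92%, 0.102% and 1.83%. MDM4 was the message that passed in each case. In YTHDF1-ADAR cells 14 of the messages' 18 RIP values were above input, where 85.3% of listed genes were above it with YTHDF1 RIP, 80.1% with YTHDF2 RIP and 76.6% with YTHDF3 RIP. In YTHDF2-ADAR cells 5 of 9 were, beside 50.9%, 47.7% and 58.4% of listed genes, and in YTHDF3-ADAR cells 8 of 15, beside 45.7%, 46.8% and 58.4%.

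Of the enzymes, ADARB1 differed between inputs by more than any of the 9 messages. ADAR lay at 344 ± 43.2 CPM in YTHDF1-ADAR, 413 ± 19.2 CPM in YTHDF2-ADAR and 475 ± 16.6 CPM in YTHDF3-ADAR inputs (mean ± SD, n = 3 each). ADARB1 lay at 521 ± 40.0, 58.2 ± 1.998 and 2091 ± 56.6 CPM in the same inputs, and a fusion and a gene of the cell cannot be told apart in gene counts. Its log2 fold change was 3.16 for YTHDF1-ADAR against YTHDF2-ADAR inputs, -2.01 for YTHDF1-ADAR against YTHDF3-ADAR, and 5.17 for YTHDF3-ADAR against YTHDF2-ADAR. ADARB2, the catalytically silent relative, had at most 3 counts in any library. In the editing tables ADARB1 stood at 6.65% over 38 sites in YTHDF1-ADAR, 17.1% over 11 sites in YTHDF2-ADAR and 95.1% over 6 sites in YTHDF3-ADAR inputs. The sites listed differ between lines, so these levels are not compared. Whether the ADARB1 sites lie in RNA of a fusion or of the cell's own gene is not known here.

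Other messages of the same kind were read from lists. Of 18 other messages with a recoding site 13 were tested, of which 5 were higher and 4 lower in YTHDF1 RIP of YTHDF1-ADAR cells, 2 and 9 in YTHDF2-ADAR, and 2 and 6 in YTHDF3-ADAR cells. The shares of all genes were 20.6% and 28.8%, 41.8% and 33.4%, and 40.8% and 32.4%. YTHDF2 RIP gave 5 and 2, 4 and 2, and 3 and 2, beside 8.66% and 15.5%, 10.2% and 10.1%, and 8.98% and 9.93% of all genes. YTHDF3 RIP gave 6 and 3, 6 and 3, and 6 and 2, beside 11.5% and 20.1%, 15.2% and 16.9%, and 13.5% and 16.1%. Their median log2 fold change was 0.22, -0.64 and -0.35 in YTHDF1 RIP of the 3 lines, beside -0.16, -0.48 and -0.45 over coding genes. SRP9, a subunit of the signal recognition particle, fell in every RIP, with log2 fold changes of -2.70, -2.52 and -2.54 in YTHDF1 RIP, -1.78, -1.11 and -1.19 in YTHDF2 RIP and -2.11, -1.73 and -1.51 in YTHDF3 RIP. It has processed pseudogenes that can share its reads. CDK13, a transcription kinase, rose by 1.58 in YTHDF1 RIP of YTHDF1-ADAR cells.

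Of 12 other messages with edited inverted repeats, all tested, 2 were higher and 6 lower in YTHDF1 RIP of YTHDF1-ADAR cells, 0 and 10 in YTHDF2-ADAR, and 1 and 9 in YTHDF3-ADAR cells, where 20.6% and 28.8%, 41.8% and 33.4%, and 40.8% and 32.4% of all genes were. Their medians were -0.99, -1.43 and -1.46, beside -0.16, -0.48 and -0.45 over coding genes. YTHDF2 RIP gave 2 and 6, 2 and 6, and 3 and 5, beside 8.66% and 15.5%, 10.2% and 10.1%, and 8.98% and 9.93% of all genes. YTHDF3 RIP gave 1 and 6, 2 and 3, and 2 and 4, beside 11.5% and 20.1%, 15.2% and 16.9%, and 13.5% and 16.1%. PSMB2, a proteasome subunit, fell by 2.40 in YTHDF1 RIP of YTHDF1-ADAR cells. F11R, a junctional adhesion molecule, went both ways. It rose in YTHDF2 RIP by 1.71, 1.75 and 1.20, with means of 126.5, 126.5 and 119.8 CPM, against 38.7, 37.7 and 52.0 CPM in input, and fell in YTHDF1 RIP of YTHDF2-ADAR and YTHDF3-ADAR cells, with log2 fold changes of -2.01 and -1.94. The shares of all genes are the same for the remaining lists. Of 27 regulators of editing and double-stranded RNA binding proteins 25 were tested, and 8 were higher and 14 lower, 3 and 16, and 2 and 19 in YTHDF1 RIP of the 3 lines. Their medians there were -0.61, -0.55 and -0.72, beside -0.16, -0.48 and -0.45 over coding genes. They gave 6 and 7, 5 and 4, and 7 and 3 in YTHDF2 RIP, and 7 and 9, 6 and 7, and 7 and 7 in YTHDF3 RIP. Of the 5 m6A readers, 3 were higher and 1 lower in YTHDF1 RIP of YTHDF1-ADAR cells and 0 and 2 in the other lines, 2 and 0 in YTHDF2 RIP of each line, and 3, 2 and 2 higher with 0 lower in YTHDF3 RIP. The regulators include ADAR and ADARB1, and the readers YTHDF1, YTHDF2 and YTHDF3. Counts of these genes may include reads of a fusion.

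Across the 12 group means of log2 CPM, which share libraries and scaling, AZIN1 and XIAP ran most alike among the 9 messages (Pearson r = 0.922), then COPA and XIAP (0.919), and BLCAP and NEIL1 ran most opposed (-0.895). The genes nearest to the mean profile of the 9, of 8901 coding genes compared over the 12 groups, were GNAQ (r = 0.98), CREB3L2 (0.976) and HGSNAT (0.972).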

How the data were processed

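Counts per gene for 36 libraries were deposited by the authors; reads were aligned with STAR 2.7.7 and counted with featureCounts 2.0.1, per the submitters' processing notes. Reads were counted without strand, per the file headers, with multimapping and overlapping reads kept, so genes that overlap share reads. The 9 messages and all gene lists were chosen with earlier results of these data known, and every message was described whether called or not. Of each list, the 3 genes of smallest p in a comparison could be named. The counts were fitted for 31849 of 60675 genes in 1 model of 12 groups with edgeR 4.0.16 (R 4.3.3; filterByExpr, TMM scaling, quasi-likelihood F test), and p-values were adjusted over all genes by the Benjamini-Hochberg method, with a threshold of 0.05. A row that names a rat gene was left out and held at most 0.000312% of a library's counts. TPM was computed from counts and the deposited exonic length. The comparison of YTHDF3 with YTHDF2 RIP was added after the values of MDM2 were seen. Libraries correlated at 0.9975 at most and no 2 were identical.

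The deposited editing tables hold a score and a site number per gene, pooled over replicates by the authors, and the level is 100 times score over site number. Their natural log odds ratios and adjusted p-values are the authors' own, by a test not given in the sources used here. The authors' deposited DESeq2 table gives log2 fold changes with the lines joined, adjusted p-values and a mean signal of normalized counts. Depth behind the editing levels is unknown. Alternatives were DESeq2 size factors or total counts as scaling, no low-count filter, only the groups compared, a replicate block, the DESeq2 1.42.0 test, each library left out, and a fit without the 6 YTHDF1 RIP libraries that stood apart. In 3 of 9 comparisons all 3 correlations of deviations from group means between RIP and input samples of the same number were over 0.1, and not in the other 6. These were YTHDF2 RIP in YTHDF2-ADAR cells, and YTHDF1 and YTHDF2 RIP in YTHDF3-ADAR cells. In the first of them replicates 1 and 2 correlated better with an input of another number, so the numbers are not shown to pair samples there. The code was tested on simulated data. Some genes of the lists are not reported here by name.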

Additional observations from a re-analysis of the deposited data

Results flagged for a closer look

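YTHDF1 RIP enrichment over input differed between the 3 lines for 7 of the 9 messages, by the interaction test in edgeR. The adjusted p was 3.2e-12 for NEIL1, 2.47e-08 for MDM2, 3.19e-05 for BLCAP, 9.59e-05 for COG3, 0.000118 for CYFIP2, 0.000273 for MDM4 and 0.00205 for COPA. In the same test 63.7% of all genes were called. With the lines in numerical order, the log2 fold changes were -1.15, 1.96 and 1.85 for NEIL1 and 0.99, -0.56 and -0.65 for MDM2. MAN2C1, which shares 26.4% of the exonic bases of NEIL1 on the other strand, gave -1.10, 2.23 and 2.51. Reads of the shared bases cannot be assigned to either gene. In the YTHDF2-ADAR and YTHDF3-ADAR lines the YTHDF1 RIP libraries hold fewer counts and less coding RNA than those of YTHDF1-ADAR cells, so line and library cannot be told apart.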

How the results depend on the processing

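Of the alternatives to the counts of called messages, 24 moved a count by over 1.5 times, and 0 values that were called in either setting changed sign, while values that were not called could. In YTHDF1-ADAR cells YTHDF2 RIP called 5 messages, but 3 with DESeq2 size factors, with no filter or without the 6 libraries that stood apart, 2 by total counts and 1 with only the groups compared. YTHDF3 RIP called 3 there, but 6 by total counts and 5 with only the groups compared. In YTHDF2-ADAR cells YTHDF2 RIP called 2, but 5 by total counts and 4 with only the groups compared, and YTHDF3 RIP 4, but 8 by total counts. In YTHDF3-ADAR cells YTHDF2 RIP called 1, but 5 by total counts and 3 with only the groups compared. YTHDF1-ADAR against YTHDF2-ADAR inputs called 1, but 3 with DESeq2 size factors, the DESeq2 test or without the 6 libraries, and 0 with only the groups compared. YTHDF1-ADAR against YTHDF3-ADAR inputs called 4, but 2 without the 6 libraries, and YTHDF3-ADAR against YTHDF2-ADAR inputs 1, but 3 with only the groups compared and 2 by the DESeq2 test. YTHDF3 against YTHDF2 RIP called 2 in YTHDF1-ADAR cells, but 1 with only the groups compared, 2 in YTHDF2-ADAR cells, but 4 by the DESeq2 test, and 1 in YTHDF3-ADAR cells, but 2 with DESeq2 size factors or the DESeq2 test. The interaction in YTHDF1 RIP called 7, but 0 between YTHDF2-ADAR and YTHDF3-ADAR cells alone. The cause was not tested.

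With 1 library left out, counts ranged from 2 to 5, 0 to 2 and 1 to 2 for YTHDF2 RIP in the 3 lines, 3 to 6, 3 to 4 and 1 to 4 for YTHDF3 RIP, 1 to 3, 2 to 3 and 1 to 2 for YTHDF3 against YTHDF2 RIP, and 1 to 3 for YTHDF1-ADAR against each of the other inputs. They were 7 to 8, 7 to 7 and 7 to 7 for YTHDF1 RIP. Of 81 RIP-against-input results 42 were called and 23 held under every alternative. A fit with the replicate number as a block called 7, 5 and 3 messages in YTHDF1-ADAR, 7, 2 and 4 in YTHDF2-ADAR and 7, 1 and 6 in YTHDF3-ADAR cells, as without the block, and it ended no call. Of 27 correlations between samples of the same number 15 were over 0.1, and 13 samples were best with their own number, 7 of 9 of them in YTHDF3-ADAR cells. The block could not be fitted for inputs between lines.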
